A study of Rattus norvegicus with 12 samples.

Results

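Heat shock proteins and the cochaperones that work with them were followed in rat ventral midbrain cultures after depolarization with high potassium. The members were Bag3, Hspb1, Hspb8, Dnajb1, Dnaja1, Hspa8, Hspd1, Hspe1, Hsph1 and Cryab, and every probe set whose only annotated gene symbol was 1 of these 10 was taken. This gave 12 of the 15866 probe sets tested, for 9 of the 10 genes, out of 10411 genes measured this way. The only probe set that carries the Hspa8 symbol is also annotated to Haus8l2, so it was not counted.

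Each of 12 samples was hybridized to 1 single-colour Affymetrix rat array, and levels are log2 expression summaries. In all groups alike, ventral midbrain cells of CD1 rat embryos at day 12 were grown in bFGF (20 ng/ml) plus SHH (50 ng/ml) over 6 days, and over 3 more days without them. The groups were cultures depolarized with 56 mM KCl for 2 h and collected 30 min after its end, their controls kept in control medium and collected at the same time, depolarized cultures collected 2 h after its end, and their controls, with 3 arrays in each. Embryos of 4 pregnant rats were mixed into 3 sets and RNA of duplicate cultures was pooled, so the spread between arrays is that between pooled cultures and not between animals. The sources used here do not say if the 2 h and 30 min cultures share a preparation. The series title describes cultures enriched in dopaminergic neurons.

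Chaperones bind unfolded or aggregating proteins. HSP70 proteins do so in cycles of ATP hydrolysis that J-domain proteins of the HSP40 family start and that nucleotide exchange factors, such as BAG proteins and HSP110 proteins, complete. Small heat shock proteins hold unfolded clients without ATP, and in mammalian cells BAG3 links HSPB8 to HSP70 and to selective autophagy. Under proteotoxic stress the transcription factor HSF1 binds heat shock elements, which are inverted repeats of GAA and TTC, and raises many of these genes. In the list, Hspd1 and Hspe1 encode the chaperonin and cochaperonin of the mitochondrial matrix, so the name cytosolic does not hold for these genes.

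The stretches of promoter that hold heat shock cores are printed because a core lay in each member promoter that could be searched. RefSeq promoters (build GRCr8, 250 bases before to 50 after the annotated start) were found for 9 of the 10 members, and Cryab had no entry. Each of the 9 held at least 1 core of the form GAANNTTC or TTCNNGAA, which 15.4% of all 27457 promoters hold. The 3-unit element, GAANNTTC followed by NNGAA or TTCNNGAA followed by NNTTC, lay in the promoters of Dnaja1, Hspa8, Hspd1, Hspe1 and Hsph1, against 0.736% of all promoters. Both strands were searched, and the 3-unit element overlaps the cores it contains. The window of Hspa8, a gene without a counted probe set, is not printed, and that of Hspd1 is the opposite strand of the Hspe1 window. Shown for the other members are 30 bases around the core nearest the start, 5′ to 3′ on the strand of the gene, with cores in capitals.
Bag3, chr1:192533317-192533346, + strand: ggatgggaccaGAAGTTTCtagccggccag
Hspb1, chr12:26432402-26432431, - strand: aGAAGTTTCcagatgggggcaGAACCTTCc
Hspb8, chr12:45837274-45837303, + strand: agaagccaggaGAAGTTTCtaggcgcgtga
Dnajb1, chr19:41431134-41431163, - strand: cgggaggggcgGAAGGTTCtggagggctgg
Dnaja1, chr5:60638404-60638433, + strand: ggccgggcgGAACTTTCCAGAAcgctcggt
Hspe1, chr9:64084256-64084285, + strand: gctcggTTCTAGAACCTTCCGGAAggcccc
Hsph1, chr12:10427323-10427352, + strand: tgccgcagaTTCTGGAAAGTTCtcctcagt

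The promoter windows of Hspd1 and Hspe1, which lie on opposite strands, share 211 bases of chr9:64084077-64084287, and the element printed for Hspe1 is in these shared bases. It holds 2 overlapping 3-unit matches. The AP-1 motif TGANTCA, found in 7.33% of all promoters, was matched among the members only by Bag3, and the cAMP response element TGACGTCA, in 1.91% of all promoters, by none of the 9. The Bag3 match lies at -194 to -188 from the start. A match describes letters in this window and does not show that a factor binds there.

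**Figure D1:**
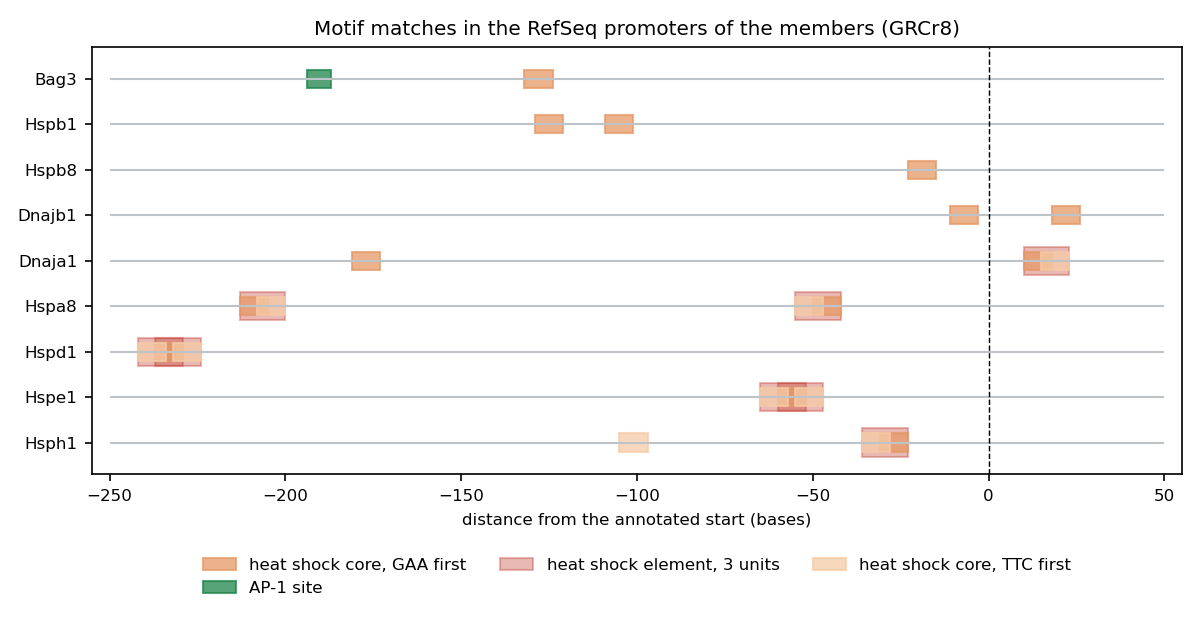
Motif matches along the RefSeq promoters of 9 members, with distance from the annotated start in bases on the x axis and 1 gene per row. Boxes mark heat shock cores, 3-unit heat shock elements and the AP-1 site. Each promoter holds at least 1 core, 5 hold a 3-unit element, and only Bag3 holds an AP-1 match.

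Pearson r over all probe sets was 0.9957 to 0.9979 for pairs of arrays within a group and 0.9717 to 0.9922 for pairs across groups, with array medians between 8.33 and 8.43. The table holds no detection calls. Mean log2 levels per array were 10.2 to 11.33 over 9 neuronal markers, 10.63 to 11.16 over 7 progenitor markers and 7.598 to 8.688 over 8 dopaminergic markers. Tyrosine hydroxylase (Th), the defining enzyme of dopamine neurons, had group means of 7.53 to 7.96, below the array medians. Those of Slc6a3, Slc18a2, Nr4a2 and Pitx3 were also below them. Ddc (8.56 to 10.04) and Foxa2 (9.06 to 10.12) were above them, and Aldh1a1 ran from 8.07 to 10.36. A level beside the array median does not measure how abundant a transcript is. In bulk RNA, fewer cells of a type and less RNA per cell cannot be told apart.

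The members did not move together. At 30 min the J-domain gene Dnajb1 rose at both probe sets, and so did Bag3, 1 of 2 probe sets of the J-domain gene Dnaja1 and 1 of 2 of Hspb8. At 2 h Bag3, Hspb8, Cryab, Hspb1 and 1 Dnaja1 probe set were higher than in controls, and Hspe1 and Hsph1 were lower. Of the 12 member probe sets, 5 were called higher and 0 lower at 30 min (limma, Benjamini-Hochberg adjusted p under 0.05 over all probe sets), where 10.8% of all probe sets were called higher and 13.1% lower. At an unadjusted p under 0.05, 6 were higher and 0 lower. At 2 h, 6 were called higher and 2 lower, against 9.51% higher and 15.7% lower of all probe sets. The median difference of the members was 0.16 at 30 min and 0.20 at 2 h, beside medians of 0.01 and -0.00069 over all probe sets.

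**Figure D2:**
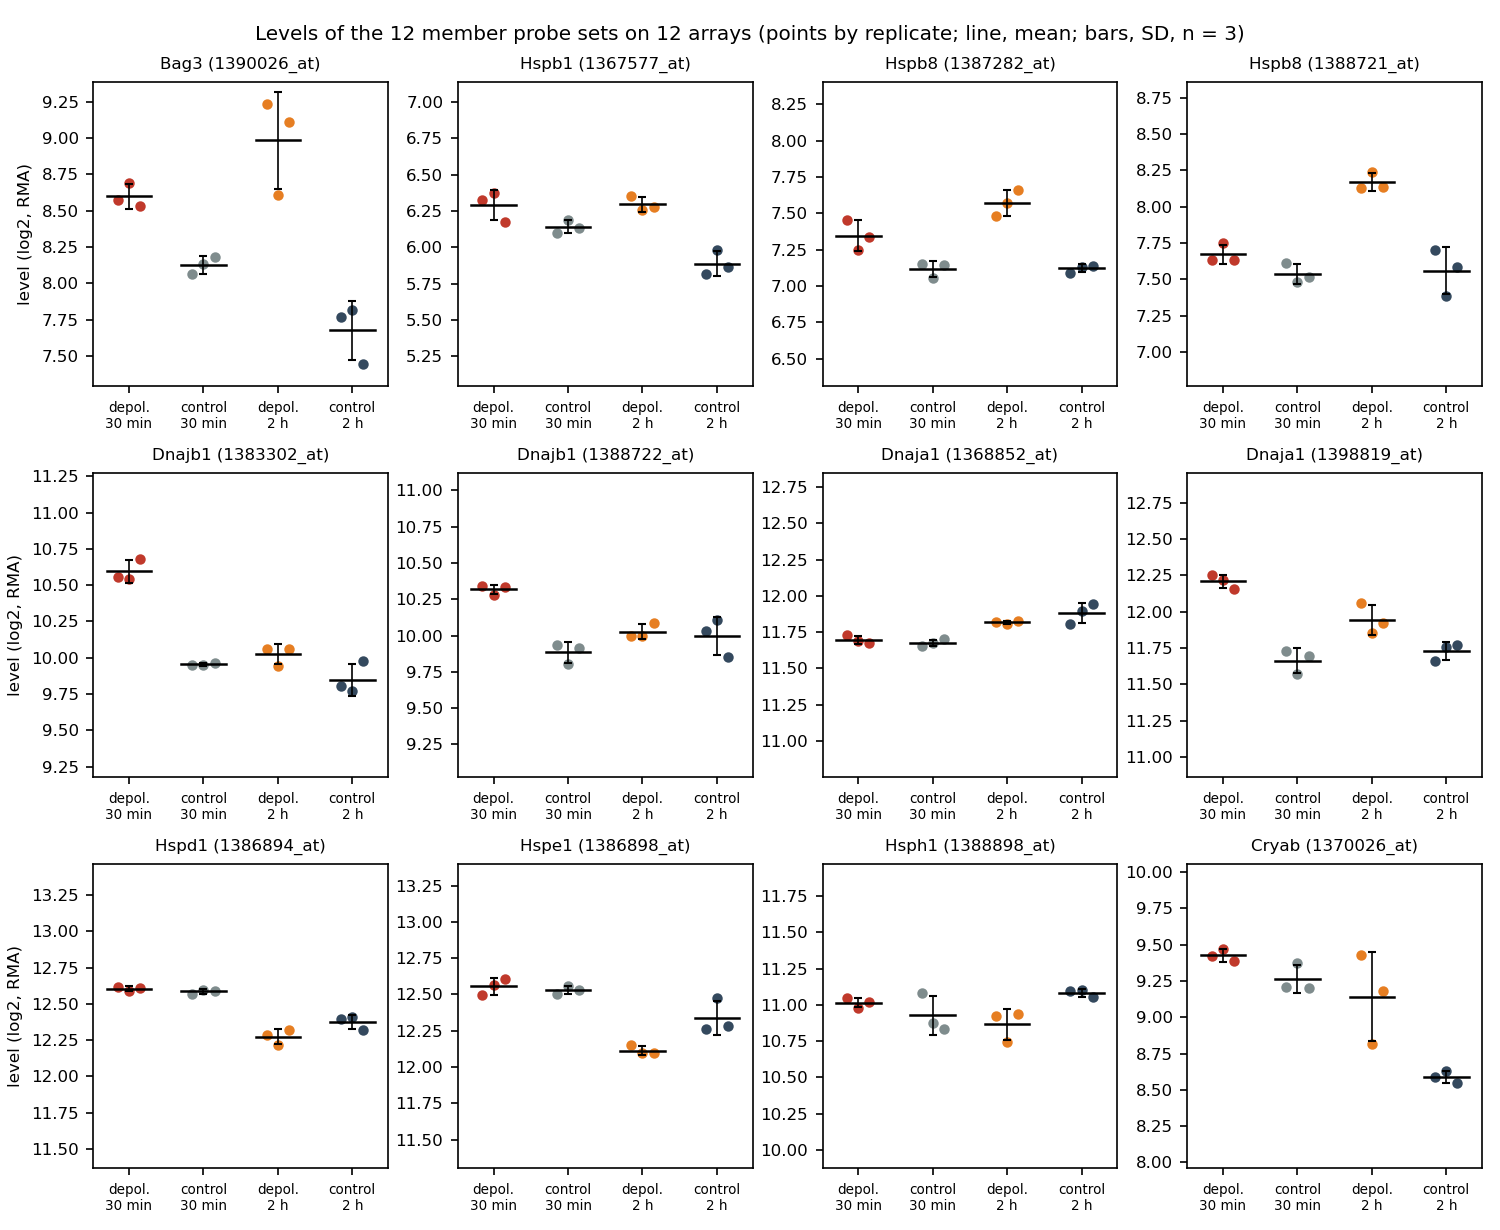
Log2 levels of the 12 member probe sets on each of 12 arrays, by group on the x axis, with the mean as a line and the SD as bars (n = 3). Each panel spans the same log2 range. The Dnajb1 panels peak in depolarized cultures at 30 min, and the Bag3 and Hspb8 panels in depolarized cultures at 2 h.

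Dnajb1 encodes a J-domain protein that stimulates the ATPase of HSP70. Its first probe set was at 10.56, 10.54 and 10.68 in depolarized cultures at 30 min, against 9.95, 9.95 and 9.96 in controls. All depolarized arrays lay above all controls, and Dnajb1 rose 1.56-fold (log2 difference 0.64, SE 0.07, 95% interval of the fold 1.41 to 1.73, adjusted p = 3.74e-06). Its second probe set was at 10.34, 10.28 and 10.33 in depolarized cultures, against 9.94, 9.80 and 9.91 in controls, and rose by 0.43 (SE 0.07, adjusted p = 0.000206).

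At 2 h Dnajb1 was no longer called. The first probe set was at 10.06, 9.95 and 10.06 in depolarized cultures, against 9.80, 9.77 and 9.98 in controls (difference 0.17, adjusted p = 0.0774), and these groups overlapped. It did pass after median centring (0.217, adjusted p = 0.0344), quantile normalization (0.231, adjusted p = 0.0233), loess correction (0.236, adjusted p = 0.0214), with array weights (0.209, adjusted p = 0.0287) and without control replicate 6 (0.237, adjusted p = 0.02). The second probe set was at 10.00, 10.00 and 10.09 in depolarized cultures, against 10.03, 10.11 and 9.86 in controls (difference 0.03, 95% interval -0.12 to 0.18).

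Dnaja1, a J-domain cochaperone of cytosolic HSP70, gave different answers at its 2 probe sets. One of them was at 12.25, 12.22 and 12.16 in depolarized cultures at 30 min, against 11.73, 11.57 and 11.69 in controls, and rose 1.46-fold (log2 difference 0.55, SE 0.07, adjusted p = 2.1e-05). The groups did not overlap. The other was at 11.73, 11.69 and 11.67 in depolarized cultures, against 11.66, 11.67 and 11.70 in controls, a difference of 0.02 with a 95% interval of -0.10 to 0.14 (adjusted p = 0.867).

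At 2 h the responding Dnaja1 probe set was at 12.06, 11.85 and 11.93 in depolarized cultures, against 11.66, 11.76 and 11.77 in controls, and rose by 0.22 (SE 0.07, adjusted p = 0.031). This call was lost with the replicate number as a block (adjusted p = 0.0638), in a fit of only the arrays compared (adjusted p = 0.0563), and without control replicate 4 or 5 or depolarized replicate 4 or 6 (adjusted p from 0.0552 to 0.159). The second probe set differed by -0.06 (adjusted p = 0.477). The mean of both Dnaja1 probe sets differed by 0.28 at 30 min (adjusted p = 0.00151) and by 0.08 at 2 h (adjusted p = 0.364).

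**Figure D3:**
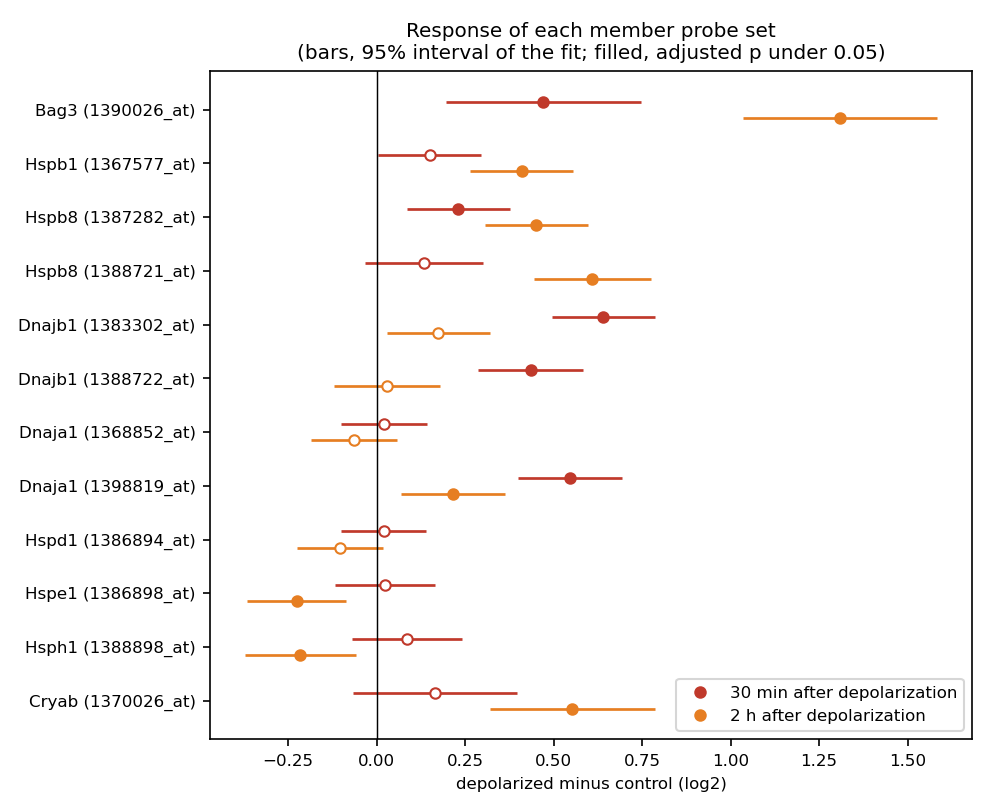
Log2 difference of depolarized minus control for each member probe set at 30 min and at 2 h, with the 95% interval of the limma fit. Filled points passed adjusted p 0.05. Bag3 at 2 h lies farthest to the right at 1.31, and Dnajb1 and 1 Dnaja1 probe set lie farther right at 30 min than at 2 h.

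Bag3 encodes the stress-induced BAG protein that exchanges nucleotide on HSP70 and binds small heat shock proteins. It was at 9.24, 8.61 and 9.11 in depolarized cultures at 2 h, against 7.77, 7.82 and 7.44 in controls. It rose 2.48-fold (log2 difference 1.31, SE 0.13, 95% interval 1.03 to 1.58, adjusted p = 5.13e-06), and ranked 92 by p among all probe sets at 2 h. Depolarized replicate 5 was the lowest array of its group, though above every control, and without it the difference was 1.498.

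Already at 30 min Bag3 was at 8.57, 8.69 and 8.53 in depolarized cultures, against 8.06, 8.13 and 8.18 in controls. This 1.39-fold rise (log2 difference 0.47, SE 0.13, adjusted p = 0.013) missed the threshold once depolarized replicate 2 was left out (0.425, adjusted p = 0.0539). The control level itself differed between collection times. It was 0.45 lower in controls at 2 h than in controls at 30 min (adjusted p = 0.0129), and without control replicate 6 of the 2 h group, the lowest array of all, this comparison did not pass (difference -0.333, adjusted p = 0.0668). The depolarized cultures at 2 h lay above the 30 min controls on all arrays.

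The small heat shock gene Hspb8, whose protein works with BAG3, rose at both probe sets at 2 h. The second was at 8.13, 8.24 and 8.14 in depolarized cultures, against 7.70, 7.39 and 7.59 in controls, a 1.53-fold rise (log2 difference 0.61, SE 0.08, adjusted p = 4.25e-05). The first was at 7.48, 7.57 and 7.66 in depolarized cultures, against 7.09, 7.13 and 7.14 in controls, and rose by 0.45 (SE 0.07, adjusted p = 0.00019). In neither did the groups overlap.

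At 30 min the probe sets of Hspb8 differed in their call. The first was at 7.46, 7.25 and 7.34 in depolarized cultures, against 7.15, 7.05 and 7.14 in controls, and rose by 0.23 (adjusted p = 0.0203), which did not pass without control replicate 2 (0.0903), nor without replicate 1 of the depolarized cultures (0.093). The second was at 7.63, 7.75 and 7.63 in depolarized cultures, against 7.61, 7.48 and 7.52 in controls (difference 0.13, adjusted p = 0.269). Control levels of Hspb8 differed between collection times by 0.01 at the first probe set (adjusted p = 0.953) and by 0.02 at the second (adjusted p = 0.856).

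Hspb1 encodes the small heat shock protein HSP27 (named HSP25 in rodents). Its probe set was among the dimmest 25% of those tested. It was at 6.35, 6.26 and 6.27 in depolarized cultures at 2 h, against 5.81, 5.98 and 5.86 in controls, and rose by 0.41 (SE 0.07, adjusted p = 0.000404) with no overlap. At 30 min it was at 6.33, 6.37 and 6.18 in depolarized cultures, against 6.10, 6.19 and 6.13 in controls, and these overlapped (difference 0.15, adjusted p = 0.139). That difference passed after median centring (0.199, adjusted p = 0.0459) and with array weights (0.182, adjusted p = 0.0326). Depolarized cultures at the later and the earlier time differed by 0.0038 (95% interval -0.14 to 0.15), and controls at 2 h were 0.26 below controls at 30 min (adjusted p = 0.0082).

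Cryab encodes alpha B-crystallin, a small heat shock protein that oligodendrocytes and astrocytes of the rodent brain also express without stress. It was at 9.43, 8.82 and 9.18 in depolarized cultures at 2 h, against 8.59, 8.63 and 8.55 in controls, and rose 1.47-fold (log2 difference 0.55, SE 0.11, adjusted p = 0.00152). The groups did not overlap, but the depolarized arrays spread more widely than the controls, and without replicate 5, the lowest, the difference was 0.716. At 30 min it was at 9.42, 9.47 and 9.38 in depolarized cultures, against 9.21, 9.37 and 9.20 in controls, apart on all arrays but not past the threshold (difference 0.16, adjusted p = 0.345).

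Across collection times Cryab was 0.67 lower in controls at 2 h than in controls at 30 min (adjusted p = 0.000174), so the depolarized level at 2 h overlapped the 30 min controls. Depolarized cultures too were lower at 2 h than at 30 min (-0.28, adjusted p = 0.0483). That call was lost in a fit of only those arrays (adjusted p = 0.0984), with array weights (0.0597), with loess correction (0.0576) and without depolarized replicate 5 (-0.121, adjusted p = 0.26). It was also lost without depolarized replicate 6 (0.0766) and on leaving out depolarized replicate 1, 2 or 3 of the 30 min group (0.068 to 0.123). Cell type markers differed between the controls at 2 h and those at 30 min. Of 8 oligodendrocyte lineage markers 6 were lower and 0 higher in the 2 h controls, with mean levels per array of 7.657 to 7.762 at 2 h and 8.221 to 8.284 at 30 min. These means include Olig1, which was lower by 2.45 and stood apart from its list. The other markers of the list differed by -0.15 (Mag) to -0.55 (Cnp), and the list median was -0.246. Of 9 neuronal markers, 9 were higher in the 2 h controls (11.32 to 11.33 at 2 h, 10.2 to 10.44 at 30 min). Of 8 astrocyte markers 1 was higher and 3 were lower (10 to 10.08 at 2 h, 10.06 to 10.16 at 30 min). Of 7 progenitor markers 1 was higher and 5 were lower (10.67 to 10.82 at 2 h, 10.98 to 11.13 at 30 min). Of 8 dopaminergic markers 6 were higher and 0 lower (8.409 to 8.585 at 2 h, 7.598 to 7.719 at 30 min). Their part in the differences of Cryab, Bag3, Hspb1, Hspd1 and Hspe1 between controls was not tested.

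Within the 2 h collection fewer of these markers were called. Oligodendrocyte lineage markers were at 7.604 to 7.636 in depolarized cultures and at 7.657 to 7.762 in controls, with 2 of 8 lower and 0 higher. Astrocyte markers were at 9.964 to 10.11 in depolarized cultures and at 10 to 10.08 in controls, with 0 of 8 called by limma and 0 at an unadjusted p under 0.05. Progenitor markers were at 10.63 to 10.78 in depolarized cultures and at 10.67 to 10.82 in controls. Of these 7, Sox2 was higher (0.31, adjusted p = 0.0327), and Pax6 (-0.47, adjusted p = 0.00547) and Top2a (-0.33, adjusted p = 0.0293) were lower. Dopaminergic markers were at 8.305 to 8.688 in depolarized cultures and at 8.409 to 8.585 in controls, with 3 of 8 higher and 1 lower. Neuronal markers were at 11.18 to 11.32 in depolarized cultures and at 11.32 to 11.33 in controls. Of these 9, Nefl was higher (0.43, adjusted p = 0.0102) and 0 were lower by limma, with 1 higher and 4 lower at an unadjusted p under 0.05. At 30 min dopaminergic markers were at 7.914 to 8.073 in depolarized cultures and at 7.598 to 7.719 in controls, with 2 of 8 higher and 0 lower. Of 8 oligodendrocyte lineage markers 0 were higher and 1 was lower at 30 min. Neuronal, astrocyte and progenitor markers had 0 calls then, with 1, 0 and 1 higher at an unadjusted p under 0.05. The part of these markers in the responses of the members at either time was not tested.

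Depolarized replicate 5 of the 2 h group was the lowest of its group in 9 of the 12 member probe sets. How often it was lowest over all probe sets was not counted, so this cannot be read as a trait of the members. These include 4 of the 6 called higher at 2 h, namely those of Bag3, Hspb1, Dnaja1 and Cryab, and both called lower, those of Hspe1 and Hsph1.

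Hsph1, which encodes an HSP110 protein that acts as an HSP70 exchange factor, was at 10.93, 10.74 and 10.93 in depolarized cultures at 2 h, against 11.10, 11.10 and 11.05 in controls. It fell by 0.22 (SE 0.07, adjusted p = 0.0419). The call was lost with the replicate block (adjusted p = 0.0575), with array weights (0.0555), with median centring (0.0859), in a fit of only the arrays compared (0.0514) and on leaving out any 1 array of the comparison but depolarized replicate 6 (0.0561 to 0.181). At 30 min it was at 11.05, 10.98 and 11.02 in depolarized cultures, against 11.08, 10.88 and 10.83 in controls, and these overlapped (difference 0.09, adjusted p = 0.488).

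Hspe1, the cochaperonin, was at 12.15, 12.09 and 12.09 in depolarized cultures at 2 h, against 12.26, 12.47 and 12.28 in controls. It fell by 0.23 (SE 0.07, adjusted p = 0.0196), with no overlap. Median centring (adjusted p = 0.0565) ended that call, as did leaving out control replicate 5, its highest control (-0.158, adjusted p = 0.109), or depolarized replicate 5 or 6 (adjusted p from 0.0533 to 0.054). Hspd1, the chaperonin, was at 12.28, 12.22 and 12.32 in depolarized cultures, against 12.40, 12.41 and 12.32 in controls, and did not pass (difference -0.10, 95% interval -0.22 to 0.02, adjusted p = 0.215).

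At 30 min Hspd1 was at 12.62, 12.59 and 12.61 in depolarized cultures, against 12.57, 12.60 and 12.59 in controls, and Hspe1 at 12.49, 12.56 and 12.61 in depolarized cultures, against 12.50, 12.56 and 12.53 in controls. These groups overlapped in both genes, with differences of 0.02 for Hspd1 (95% interval -0.10 to 0.14) and 0.02 for Hspe1 (-0.12 to 0.16). Both were lower in controls at 2 h than in controls at 30 min, Hspd1 by a difference of -0.21 (adjusted p = 0.00927) and Hspe1 by one of -0.19 (adjusted p = 0.0334). The Hspe1 difference between controls did not pass in a fit of only those arrays (adjusted p = 0.052), or on leaving out any control array but replicate 5 (adjusted p from 0.0547 to 0.136).

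The probe set annotated to both Haus8l2 and Hspa8, the constitutive HSP70, was at 13.75, 13.90 and 13.89 in depolarized cultures at 30 min, against 13.80, 13.72 and 13.77 in controls. At 2 h it was at 13.86, 13.87 and 13.87 in depolarized cultures, against 13.96, 13.85 and 13.92 in controls. It was called at neither time, with a difference of 0.08 at 30 min (adjusted p = 0.434) and of -0.05 at 2 h (adjusted p = 0.654), and which of its genes the signal belongs to cannot be told here.

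Whether the response differed between collection times was tested as an interaction over all 12 arrays. Controls at 2 h against controls at 30 min were called higher at 18.1% and lower at 17.2% of all probe sets. Time after depolarization therefore cannot be told apart from other differences between the cultures collected at each time. Among the members 2 probe sets were called higher and 3 lower for the 2 h response minus the 30 min response, where 6.16% of all probe sets were higher and 6.79% lower. The response was larger at 2 h for Bag3 (by 0.84, SE 0.18, adjusted p = 0.00583) and for the second Hspb8 probe set (by 0.48, SE 0.11, adjusted p = 0.0086). The first Hspb8 probe set was not called (0.22, SE 0.10, adjusted p = 0.165). It was smaller at 2 h for Dnajb1 at both probe sets (-0.47, SE 0.10, adjusted p = 0.00417, and -0.41, SE 0.10, adjusted p = 0.012) and for the responding Dnaja1 probe set (-0.33, SE 0.10, adjusted p = 0.0364). The Dnaja1 call did not survive the replicate block (adjusted p = 0.0777) or quantile normalization (0.0559), or the omission of any 1 of 8 of the 12 arrays (0.0564 to 0.105). The other Dnaja1 probe set gave -0.08 (adjusted p = 0.607), and the mean of both gave -0.21 (adjusted p = 0.112).

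For Hspb1 (0.26, adjusted p = 0.0947), Cryab (0.39, adjusted p = 0.119), Hsph1 (-0.30, adjusted p = 0.0702) and Hspe1 (-0.25, adjusted p = 0.0964) a difference between the responses was not called. Cryab passed without depolarized replicate 5 (0.552, adjusted p = 0.00345), Hsph1 without control replicate 1 of the 30 min group (-0.378, adjusted p = 0.0209) and Hspe1 with array weights (-0.27, adjusted p = 0.0471).

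Between collection times within one treatment, 3 member probe sets were called higher and 6 lower in depolarized cultures at 2 h than in those at 30 min, against 19.2% higher and 21.8% lower of all probe sets. Dnajb1 differed by -0.57 at its first probe set (adjusted p = 7.43e-06), and Hspb8 was higher by 0.50 at its second probe set (adjusted p = 0.000101). In controls 1 member probe set was higher and 5 were lower at 2 h, against 18.1% and 17.2% of all probe sets. These were the non-responding Dnaja1 probe set (0.21, adjusted p = 0.0104), which quantile normalization did not call (0.134, adjusted p = 0.0836), and the falls of Bag3, Hspb1, Hspd1, Hspe1 and Cryab given above.

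The order of the group means can be read gene by gene. Bag3 and Hspb1 ran from depolarized at 2 h through depolarized at 30 min and controls at 30 min to controls at 2 h. In Bag3 the depolarized groups overlapped each other and the other neighbours did not. In Hspb1 only the controls at 2 h stood apart. Both Hspb8 probe sets had depolarized at 2 h on top, clear of all other groups, and controls that overlapped each other. Both Dnajb1 probe sets, and the responding Dnaja1 probe set, had depolarized at 30 min on top and clear of all other groups. Hspd1 and Hspe1 had both 30 min groups, overlapping, above the 2 h controls, with depolarized at 2 h lowest on average. Cryab ran from depolarized at 30 min through controls at 30 min and depolarized at 2 h to controls at 2 h. Of these neighbours only controls at 30 min and depolarized at 2 h overlapped. Hsph1 had controls at 2 h on top, apart from depolarized at 30 min, then controls at 30 min and depolarized at 2 h.

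Related genes were taken from lists of the chaperone families, of heat shock factors and of other heat-inducible genes, each gene at its brightest probe set. Of 96 listed genes 81 were measured. At 30 min 21 of them (25.9%) rose and 5 (6.17%) fell, with a median difference of 0.09. At 2 h 9 (11.1%) rose and 12 (14.8%) fell, with a median of -0.0015. Not all of these are chaperones. Other heat-inducible genes gave 5 of the rises at 30 min and 4 at 2 h, and heat shock factors gave 2 at 30 min. The shares of all probe sets are those given above for each time.

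Among HSP70 relatives 2 of 7 rose at 30 min, and 2 rose and 1 fell at 2 h. The ER-associated Hspa13 rose by 0.68 (adjusted p = 7.3e-07) and the HSP110 gene Hspa4 by 0.40 (adjusted p = 0.0106) at 30 min, while Hspa1l did not pass (0.06, adjusted p = 0.594). The stress-inducible HSP70 gene Hspa1a differed by -0.04 at 30 min (adjusted p = 0.832) and rose by 0.43 at 2 h (adjusted p = 0.00145). Hspa13 was still higher at 2 h by 0.37 (adjusted p = 0.000377), and Hspa12a fell by 0.31 (adjusted p = 0.00293).

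J-domain genes outside the member list went both ways, with 4 of 17 risen and 4 fallen at 30 min, and 1 risen and 6 fallen at 2 h. Dnajb4, a close relative of Dnajb1, was at a mean of 10.14 in depolarized cultures and 9.35 in controls at 30 min, a rise of 0.80 (adjusted p = 2.32e-07). At 2 h it fell by 0.21 (adjusted p = 0.0275). Dnajc14 fell by 0.99 at 30 min (adjusted p = 7.59e-07) and the mitochondrial Dnaja3 fell by 0.36 (adjusted p = 0.00125). At 2 h Dnaja3 fell by 0.49 (adjusted p = 0.000124), the ribosome-associated Dnajc2 fell by 0.44 (adjusted p = 0.00102) and Dnajc6, an auxilin that uncoats clathrin vesicles, fell by 0.54 (adjusted p = 0.00525).

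HSP90 genes and cochaperones gave 1 rise and 1 fall of 12 at 30 min and, by limma, 0 rises and 1 fall at 2 h (1 higher and 4 lower at an unadjusted p under 0.05). Chordc1 rose by 0.71 at 30 min (adjusted p = 8.12e-06), and the immunophilin gene Fkbp5 fell by 0.60 (adjusted p = 0.000243). Cdc37, which brings kinases to HSP90, did not pass (0.17, adjusted p = 0.0618), and Hsp90ab1 differed by 0.01 at 30 min (adjusted p = 0.917) and by 0.09 at 2 h (adjusted p = 0.322). At 2 h Fkbp4 fell by 0.27 (adjusted p = 0.0227), and the ATPase activator Ahsa1 (-0.21, adjusted p = 0.0533) and Chordc1 (-0.21, adjusted p = 0.0687) did not pass.

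Of 8 HSP70 regulators and other BAG genes 2 rose at 30 min and 1 at 2 h, with 0 falls by limma (1 and 0 at an unadjusted p under 0.05). Bag5 rose by 0.42 (adjusted p = 0.000167) and Hspbp1 by 0.22 (adjusted p = 0.0497) at 30 min, and St13 by 0.21 at 2 h (adjusted p = 0.0144). St13 at 30 min (0.16, adjusted p = 0.0571), and Bag2 (0.20, adjusted p = 0.0633) and Bag5 (0.15, adjusted p = 0.106) at 2 h did not pass. Among the 5 other small heat shock genes measured 0 were called at either time by limma, and 0 had an unadjusted p under 0.05. The lowest p at 30 min belonged to Hspb7 (-0.08, adjusted p = 0.481), Cryaa (0.06, adjusted p = 0.652) and Hspb2 (0.03, adjusted p = 0.816), and at 2 h to Hspb6 (-0.11, adjusted p = 0.306), Hspb3 (0.08, adjusted p = 0.471) and Cryaa (0.06, adjusted p = 0.604).

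Of 13 genes of the cytosolic chaperonin and prefoldin 4 rose at 30 min, among them Pfdn4 by 0.47 (adjusted p = 0.000383), Pfdn2 by 0.28 (adjusted p = 0.00649) and the chaperonin subunit Cct3 by 0.27 (adjusted p = 0.0133). At 2 h 0 were called by limma and 1 had an unadjusted p under 0.05, with Pfdn6 (-0.22, adjusted p = 0.0814), Cct5 (0.11, adjusted p = 0.228) and Pfdn5 (-0.13, adjusted p = 0.237) nearest. Of 6 mitochondrial chaperone and protease genes 1 rose at 30 min, Hspa9 by 0.31 (adjusted p = 0.00272), while Trap1 (-0.13, adjusted p = 0.234) and Grpel1 (0.09, adjusted p = 0.527) did not pass. At 2 h 1 rose and 3 fell, and Trap1 fell by 0.30 (adjusted p = 0.0056), Clpx fell by 0.26 (adjusted p = 0.0106) and Clpp fell by 0.22 (adjusted p = 0.0313).

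Of 4 genes of heat shock factors and their binding protein 2 rose at 30 min and 0 at 2 h by limma, where 1 had an unadjusted p under 0.05. Hsf1 was at a mean of 8.83 in depolarized cultures and 8.50 in controls at 30 min and rose by 0.33 (adjusted p = 0.0139), and Hsf2 rose by 0.32 (adjusted p = 0.00474). Hsf4 did not pass (0.19, adjusted p = 0.193), nor did Hsf1 (0.23, adjusted p = 0.0737), Hsbp1 (0.09, adjusted p = 0.335) and Hsf4 (-0.08, adjusted p = 0.629) at 2 h. Of 9 further heat-inducible genes 5 rose at 30 min, and 4 rose and 1 fell at 2 h. Tcp11l2 rose by 0.45 (adjusted p = 0.00119) and the autophagy receptor gene Sqstm1 by 0.29 (adjusted p = 0.00212) at 30 min. At 2 h Zfand2a, whose protein sits at the proteasome, rose by 0.63 (adjusted p = 1.23e-05), and Hspbap1 fell by 0.40 (adjusted p = 0.00128). Heme oxygenase Hmox1 had the smallest p of that list at both times, with a difference of 1.09 at 30 min (adjusted p = 8.64e-07) and of 1.89 at 2 h (adjusted p = 5.25e-09).

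**Figure D4:**
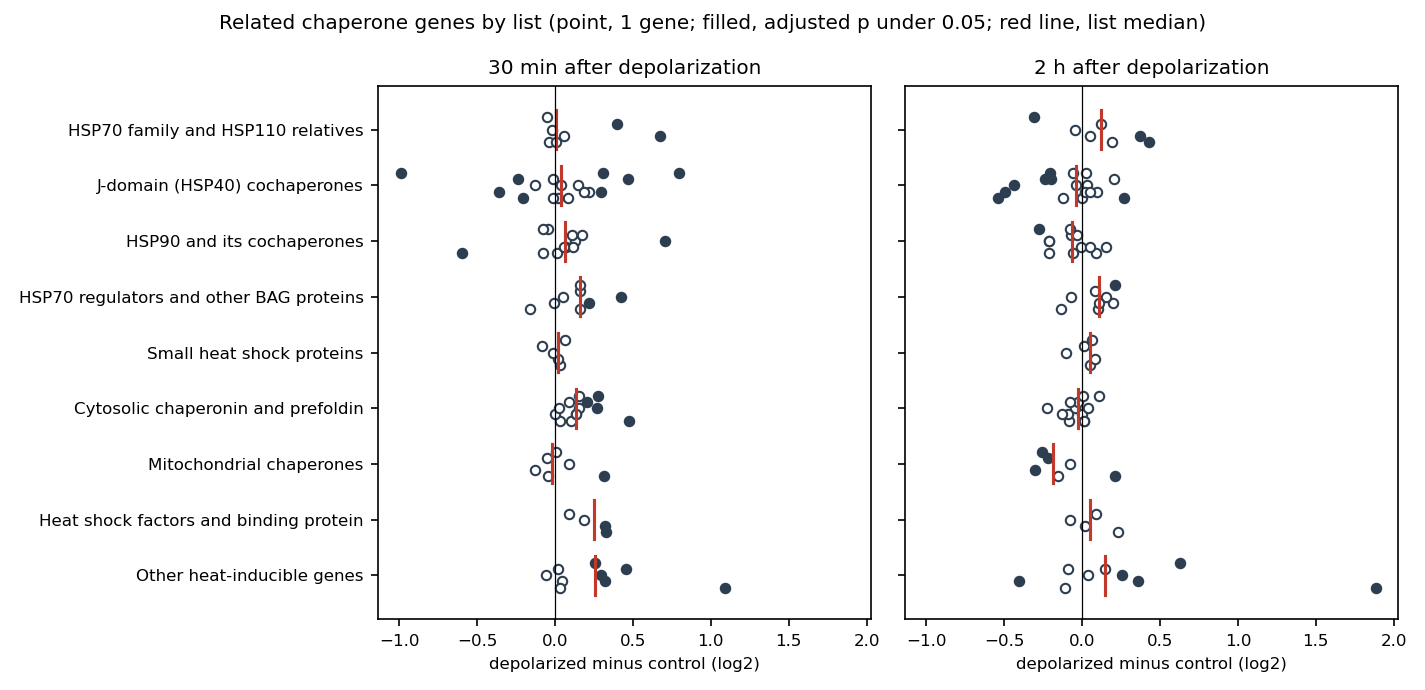
Log2 difference of depolarized minus control for 81 related genes, at 30 min on the left and at 2 h on the right. The 9 lists hold chaperone families, heat shock factors and other heat-inducible genes, with each list's median as a red line. Filled points passed adjusted p 0.05. At 30 min 21 genes rose and 5 fell, and at 2 h 9 rose and 12 fell.

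The genes whose log2 level followed each member most closely over the 12 arrays were listed by Pearson r, as a description without a test, since the arrays of 4 groups share treatments and collection times. Bag3 was followed by S100a10 (0.983), Tgif1 (0.975) and Timp1 (0.972), and Hspb1 by Cdkn1a (0.953), Crhbp (0.950) and Timp1 (0.941). The second Hspb8 probe set was followed by Slc40a1 (0.957), H2ac25 (0.956) and Hexim1 (0.954). Cryab was followed by Rassf3 (0.979), Tnfaip6 (0.972) and Tpm4 (0.971).

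For the first Dnajb1 probe set the nearest were Naa30 (0.985), Prpf4b (0.984) and Zbtb10 (0.983), and for the responding Dnaja1 probe set Zbtb17 (0.983), Gpbp1 (0.973) and Rhof (0.971). Hspd1 was followed by the mitotic genes Top2a (0.990) and Spc24 (0.986) and by Uqcc5 (0.986). Hspe1 was followed by Vkorc1 (0.969), Snrpd2 (0.969) and Mrpl42 (0.966). Hsph1 had the lowest values, with Msl3 (0.917), Paip2 (0.889) and Pigu (0.871).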

How the data were processed

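Per the submitters' processing notes the authors made the deposited log2 values with RMA, which corrects background, normalizes and summarizes probe sets. No version is given, and which arrays were normalized together is not given in the sources used here. The log2 scale was read from the values (4.41 to 14.58). Precision is limited by having 3 arrays in a group.

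From the 15923 probe sets 57 array controls were left out. The platform annotation gave 1 symbol for 12783 of the 15866 tested, several for 312 and none for 2771, and 0 symbols needed updating through RefSeq. One model with a mean for each of 4 groups was fitted over the 12 arrays in limma 3.58.1 in R 4.3.3 (empirical Bayes, 8 residual degrees of freedom, no replicate block). P-values are two-sided and Benjamini-Hochberg adjusted over all 15866 probe sets, with a threshold of 0.05. Differences are depolarized minus control or 2 h minus 30 min, with the SE of the fit. The fit was tested on simulated data.

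The members, the lists of related genes and markers and the motifs were chosen with earlier results of these data known. Named related genes were the 3 of each list with the smallest p at each time, with Hsf1, Hspa1a and Hsp90ab1 in any case. Hspa1b and Hsp90aa1 had no probe set of 1 symbol. For each member the 3 genes with the highest Pearson r over the arrays were named. Protein sequences were not used here. Alternatives were other scalings, filters, weights and priors, the replicate block and leaving out each array.
The main fit did not pair arrays by replicate number, and whether equal numbers mark paired cultures could not be told from the values.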

Additional observations from a re-analysis of the deposited data

Results flagged for a closer look

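By the interaction test the response to depolarization differed between the collection times at 5 member probe sets. Time after depolarization cannot be told apart here from other differences between the cultures collected at each time. For Bag3 the response at 2 h exceeded that at 30 min by 0.84 (SE 0.18, adjusted p = 0.00583), and for the second Hspb8 probe set by 0.48 (SE 0.11, adjusted p = 0.0086). The response at 2 h was the smaller one for the first Dnajb1 probe set (-0.47, SE 0.10, adjusted p = 0.00417), the second (-0.41, SE 0.10, adjusted p = 0.012) and the responding Dnaja1 probe set (-0.33, SE 0.10, adjusted p = 0.0364). The Dnaja1 call was lost with the replicate block (0.0777), with quantile normalization (0.0559) and on leaving out any 1 of 8 arrays (0.0564 to 0.105), and the mean of both Dnaja1 probe sets did not pass (-0.21, adjusted p = 0.112). The first Hspb8 probe set was not called (0.22, adjusted p = 0.165). The Bag3 value is the sum of a depolarized level 0.39 higher at 2 h than at 30 min (adjusted p = 0.0253) and a control level that was 0.45 lower. The depolarized comparison did not pass without depolarized replicate 4 or 6 of the 2 h group or 1 or 3 of the 30 min group (adjusted p from 0.0609 to 0.135). At the second Hspb8 probe set the depolarized cultures differed by 0.50 between the times and the controls by 0.02.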

How the results depend on the processing

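The 60 member differences were refitted under the alternatives, and each was counted once per alternative. By this count 826 results kept their direction and their side of the threshold. A further 54 lost their call, 13 gained one and 18 changed sign, all 18 among uncalled differences near 0. At 30 min these were the non-responding Dnaja1 probe set (-0.01 with loess, -0.029 with quantile normalization), Hspd1 (-0.01, -0.027) and Hspe1 (-0.006, -0.028, and -0.003 to 0.055 on leaving out each array). At 2 h the second Dnajb1 probe set gave -0.041 (without control replicate 6) to 0.085. Between controls the sign changed for the responding Dnaja1 probe set (-0.013 with quantile normalization), the first Hspb8 probe set (-0.012 with median centring, -0.025 to 0.024 on leaving out each array, with -0.003 without control replicate 6) and the second (-0.052 to 0.107, with -0.008 without control replicate 2). Between depolarized cultures it changed for Hspb1 (-0.018 with array weights, -0.02 with median centring, and -0.054 to 0.044 on leaving out each array, with -0.025 without replicate 4).

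At an adjusted p under 0.01 the member probe sets called were 3 higher at 30 min, 0 lower at 2 h, 1 lower for the response difference, 0 higher and 3 lower between controls, and 1 higher between depolarized cultures. All probe sets called were then 2410 at 2 h, 1085 for the response difference and 3712 between controls. Split into higher and lower, these calls were 1203 and 1414 at 30 min and 934 and 1476 at 2 h. They were 544 and 541 for the response difference, 2138 and 1574 between controls, and 2310 and 2151 between depolarized cultures. Without the dimmest 50%, which holds Bag3, Hspb1 and Hspb8, the members called higher were 3 at 30 min, 2 at 2 h, 0 for the response difference and 0 between depolarized cultures (4269 calls in all), and 3 were lower between controls. Quantile normalization left 0 members higher between controls. Members called lower at 2 h were 0 with median centring and 1 with array weights or only the arrays compared. Averaging the probe sets of each gene left 3 related genes lower at 30 min.

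Leaving out each array gave, in members higher and lower, 4 to 5 higher at 30 min, 5 to 7 and 0 to 1 at 2 h, 2 to 3 and 2 to 4 for the response difference, 1 to 2 and 3 to 5 between controls, and 1 to 3 and 5 to 6 between depolarized cultures. Of all 15866 probe sets 3135 to 3562 were then called at 30 min and 2833 to 4070 at 2 h. For the response difference 1624 to 2081 were called, between controls 4298 to 5697 and between depolarized cultures 5561 to 6140. Median centring turned the share of higher among all calls to 58.9% at 30 min and 51.4% at 2 h, against 45.2% and 37.7% as deposited.

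Deviations of arrays with the same number correlated at -0.322, 0.229 and 0.051 at 30 min and at 0.236, -0.107 and -0.241 at 2 h. For arrays with different numbers the values ran from -0.415 to 0.256 at 30 min and from -0.293 to 0.354 at 2 h. With 3 arrays in a group these values cannot tell if equal numbers mark paired cultures. With the replicate block 1 member was called lower at 2 h, and all calls were 1607 higher and 1917 lower at 30 min, 1392 and 2225 at 2 h, and 891 and 925 for the response difference. No paired analysis was possible between collection times because the groups share no replicate number. Probe-level background correction could not be varied on summarized values.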

Other observations

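The core GAAGTTTC, noticed after the matches were seen, occurs in the promoters of Bag3, Hspb1 and Hspb8, 3 of the 4 member genes that were higher at 2 h at every probe set. Of all probe sets 9.51% were higher at that time. On either strand 395 of 27457 promoters (1.44%) hold it. The promoter of the fourth gene, Cryab, was not analysed here. No test was made of this pattern.

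The inducible HSP70 gene Hspa1a, which is no member, also had a larger response at 2 h than at 30 min, by 0.46 (adjusted p = 0.0159). The responses of Dnajb4 (-1.01, adjusted p = 4.24e-06) and Chordc1 (-0.92, adjusted p = 7.08e-05) were smaller at 2 h. Those of Hspa13 (-0.30, adjusted p = 0.0298) and Pfdn4 (-0.46, adjusted p = 0.014) were smaller too, and that of Zfand2a was larger (0.37, adjusted p = 0.0184). The genes named so far were picked after their values were seen. Of 81 related genes 5 (6.17%) were called higher and 7 (8.64%) lower for this difference, against 6.16% and 6.79% of all probe sets. The other calls were Dnajc14 (0.93, adjusted p = 0.000163), Hmox1 (0.795, adjusted p = 0.00146) and Dnajb5 (0.48, adjusted p = 0.00252), all higher. Hspbap1 (-0.45, adjusted p = 0.0122), Dnajc5 (-0.28, adjusted p = 0.0431) and Ahsa1 (-0.34, adjusted p = 0.048) were lower.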
